A study of Arabidopsis thaliana with 48 samples.

Results

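The results below concern 4 of the 30 3′ end positions counted by 18S-ENDseq, in which circularised RNA is sequenced to map where molecules of 18S ribosomal RNA (rRNA) and their precursors end. They are the untailed ends at positions 1912 to 1915 of the 45S rDNA reference of the files, which lie 21, 22, 23 and 24 bases after the D site, where mature 18S rRNA ends. The ends at +21 and +22 are named A2, and +23 and +24 are the last positions that were counted. A level is the number of reads that ended at a position with no added tail, as a percentage of the untailed reads at the D site in the same library. The members were taken by position and not by their values, and all 4 had enough reads for the tests.

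The 48 libraries came from 18-day-old Arabidopsis seedlings, with 4 libraries in each of 12 groups of 4 genotypes and 3 fractions. The genotypes were the combined mutant hot3-2 dcl2 dcl4, hot3-2, dcl2 dcl4 and wild type (WT), all in the Col-0 background. hot3-2 is a T-DNA allele of HOT3, the gene of the translation initiation factor eIF5B1. dcl2 dcl4 carries the alleles dcl2-1 and dcl4-2 of the Dicer-like enzymes DCL2 and DCL4, which make small interfering RNAs, and hot3-2 dcl2 dcl4 carries all of these alleles. Each gene was represented by a single mutant allele, and no transcript of HOT3, DCL2 or DCL4 was measured in this assay, so the genotype labels could not be checked from the counts. The fractions were the nonpolysome fractions of a sucrose gradient, its polysome fractions, and the total lysate before the gradient. The study calls the total and nonpolysome replicates of WT, hot3-2 and hot3-2 dcl2 dcl4 biological. The sources used here do not say so for dcl2 dcl4 or for the polysome libraries, so that p-values there measure only the spread between libraries, which may be technical. Whole seedlings were used, so a change in the makeup of their cells and a change within cells cannot be told apart.

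Ribosomal RNA is transcribed as a long precursor in which 18S rRNA is followed by the internal transcribed spacer 1 (ITS1). The spacer is removed by cuts and by trimming, and the D site is processed late, on the pre-40S particle. In yeast, eIF5B joins such particles to the large subunit before the D site is cut by the nuclease Nob1. An A2 end is therefore the 3′ end of a precursor that still carries a piece of ITS1. Short tails of nucleotides that are not in the template are known from many rRNA precursors, where they mark ends for trimming by the exosome.

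The sequence between the D site and each end is shown because it sets what can be told apart by this assay. It was read from the TAIR10.1 assembly at the annotated 18S rRNA genes AT2G01010 (chromosome 2, 3706 to 5513, plus strand) and AT3G41768 (chromosome 3, 14197677 to 14199484, plus strand). The 4 ends take up bases 5534 to 5537 of chromosome 2 and bases 14199505 to 14199508 of chromosome 3, inside ITS1 and outside the annotated genes. The bases were identical at both loci, and reads were not assigned to either. Capitals mark the bases from +21 onward.
end at +21: tcgatacctgtccaaaacagA
end at +22: tcgatacctgtccaaaacagAA
end at +23: tcgatacctgtccaaaacagAAC
end at +24: tcgatacctgtccaaaacagAACG
The extension of an A2 end closes with 1 or 2 adenines that follow a G. A molecule that ended at +20 and carried an added A would be read as an untailed end at +21, and a +21 end with an added A would be read as an end at +22. These cannot be told apart in the counts.

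Each library held 1815545 to 6468532 counted reads, of which 1342007 to 6103144 were untailed D-site reads. The number of untailed reads fell with distance. It was 476 to 41829 per library at +21 (median 4945), 145 to 16546 at +22 (median 1427), 33 to 948 at +23 (median 160) and 19 to 183 at +24 (median 46.5). The Wilson 95% interval of a level had a half-width of 0.965% to 8.99% of the level at +21 and of 14.5% to 46.1% at +24. These intervals cover counting error only, since the reads are PCR products without molecular identifiers. Libraries of a group did not scatter evenly. At +21, replicates 1 and 3 lay above replicates 2 and 4 in 3 of 4 nonpolysome groups, and below them in 4 of 4 polysome groups and 3 of 4 total groups. The sources used here do not say what these replicates share.

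To ask how far precursors ending at A2 or beyond persist in each genotype and fraction, the level of each end was set out over the 12 groups. The levels spanned 45.4-fold between the highest and lowest group mean at +21, 81.4-fold at +22, 21-fold at +23 and 7.49-fold at +24. At all 4 ends the highest group was hot3-2 dcl2 dcl4 nonpolysome, followed by hot3-2 nonpolysome. At +21 these held 1.56% ± 0.339 and 1.01% ± 0.0419 (SD, n = 4 each), and their libraries did not overlap. Below them came hot3-2 dcl2 dcl4 total (0.732% ± 0.0638) and hot3-2 total (0.638% ± 0.0562), whose libraries overlapped. dcl2 dcl4 nonpolysome followed with 0.269% ± 0.0288, apart from its neighbours on either side. The next 5 groups, hot3-2 dcl2 dcl4 polysome (0.174% ± 0.0555), WT nonpolysome (0.158% ± 0.0552), hot3-2 polysome (0.142% ± 0.0558), dcl2 dcl4 total (0.120% ± 0.0145) and WT total (0.112% ± 0.0119), each overlapped the next in the order. The lowest were dcl2 dcl4 polysome (0.0401% ± 0.0104) and WT polysome (0.0343% ± 0.0155), which overlapped each other and lay apart from WT total.

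The order at +22 differed from that at +21 in the middle. By their means, both polysome groups with hot3-2 stood above the nonpolysome groups without it, with 0.0703% ± 0.0177 in hot3-2 polysome and 0.0691% ± 0.0189 in hot3-2 dcl2 dcl4 polysome, against 0.0536% ± 0.00542 in dcl2 dcl4 nonpolysome and 0.0389% ± 0.0157 in WT nonpolysome. Their libraries overlapped from each of these groups to the next. At +23 both nonpolysome groups without hot3-2 had higher means than the polysome groups with it. These were 0.00927% ± 0.00109 in dcl2 dcl4 nonpolysome and 0.00618% ± 0.00235 in WT nonpolysome, against 0.00448% ± 0.000744 in hot3-2 dcl2 dcl4 polysome and 0.00446% ± 0.00128 in hot3-2 polysome. At +24 only 2 of 11 neighbouring groups had libraries that did not overlap, against 5 of 11 at +21 and 4 of 11 at +22 and at +23. The lowest mean at +24 was 0.000902% ± 0.00022, in dcl2 dcl4 polysome.

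**Figure D1:**
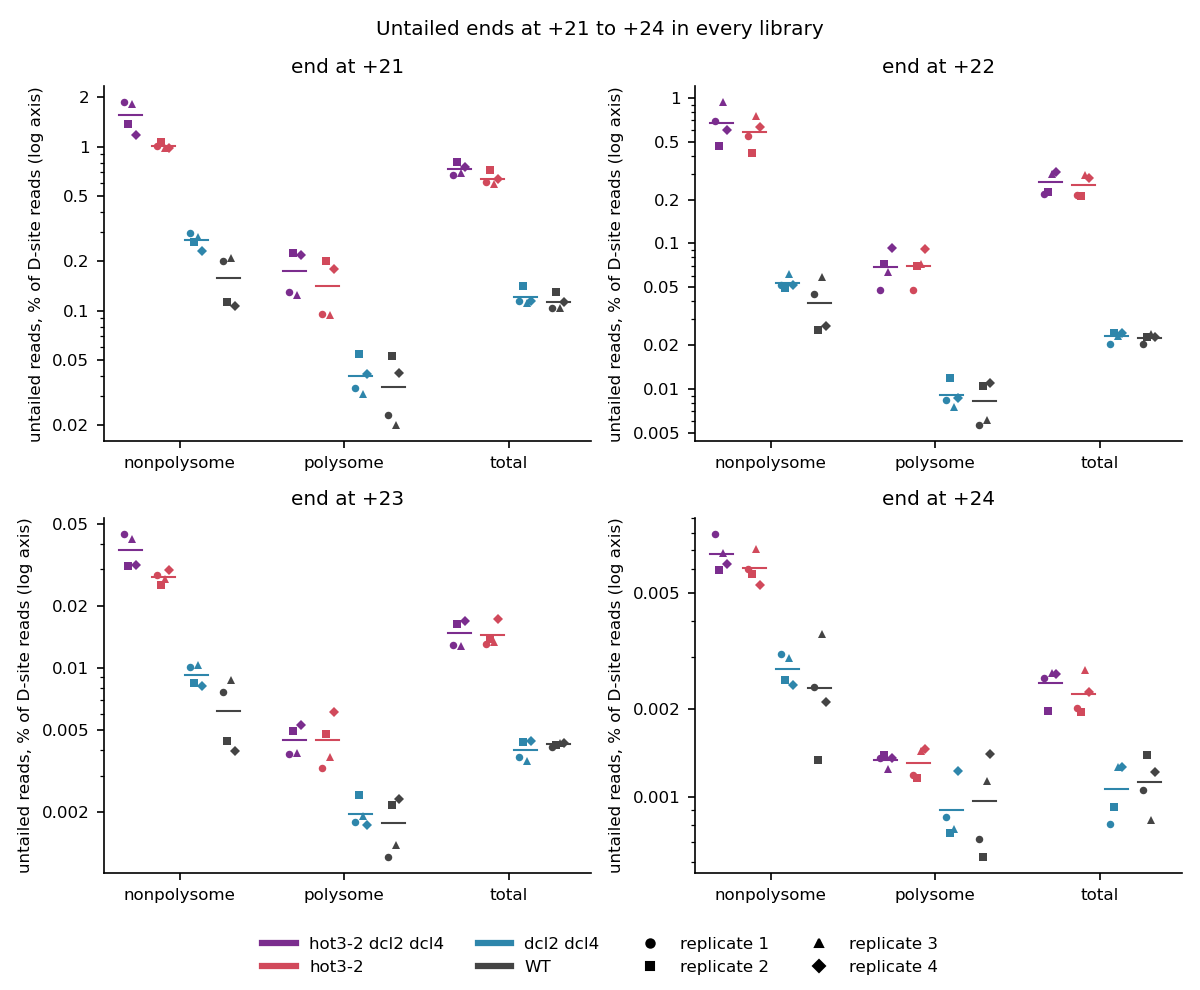
Untailed reads at each end as a percentage of D-site reads, on a log axis, in every library. Symbols are replicates 1 to 4, lines are group means, and colours are genotypes within the nonpolysome, polysome and total fractions. Within each fraction both genotypes with hot3-2 lie above both without it at +21, +22 and +23 relative to the D site (+23 was lower with TMM scaling), while the polysome groups draw together at +24.

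The comparison of hot3-2 with WT asks how loss of HOT3 alters these ends. In total lysate, untailed reads at +21 were 0.607%, 0.719%, 0.594% and 0.631% of D-site reads in hot3-2 replicates 1 to 4, against 0.104%, 0.129%, 0.104% and 0.113% in WT. At +22 they were 0.217%, 0.211%, 0.293% and 0.281% in hot3-2, against 0.0204%, 0.0228%, 0.0239% and 0.0229% in WT. Libraries of the 2 genotypes did not overlap at either A2 end, where hot3-2 was 5.67-fold higher (log2 fold change 2.5 ± 0.10 SE, adjusted p = 2.94e-10) and 11.1-fold higher (log2 fold change 3.48 ± 0.14 SE, adjusted p = 2.14e-10). At +23 the levels were 0.0131%, 0.0138%, 0.0133% and 0.0172% in hot3-2, against 0.00413%, 0.00424%, 0.00433% and 0.00434% in WT. At +24 they were 0.00201%, 0.00195%, 0.00272% and 0.00229% in hot3-2, against 0.00106%, 0.00139%, 0.000835% and 0.00122% in WT. Relative to the D site, +23 was 3.37-fold higher (log2 fold change 1.75 ± 0.11 SE, adjusted p = 1.38e-08) and +24 1.97-fold higher (log2 fold change 0.98 ± 0.16 SE, adjusted p = 0.000116), again without overlap. All 4 ends were called, where 82.8% of the 29 positions other than the D site were called at an adjusted p under 0.05. Libraries did not overlap at 23 of the 29 positions. The median log2 fold change was 2.13 over the 4 ends and 2.38 over all 29 positions.

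The direction at +23 and +24 depended on what the ends were set against. When the libraries were scaled by TMM, which centres them on the counted positions in place of the D site, the median over all positions moved by -2.37 on the log2 scale. The positions called then split into 10 higher and 12 lower in hot3-2, against 24 higher and 0 lower relative to the D site. On that scale +22 was still higher in hot3-2 (log2 1.10, adjusted p = 5.58e-07), +21 did not pass the test (log2 0.15, adjusted p = 0.21), and +23 and +24 were lower (log2 -0.61 and -1.38, adjusted p = 8.71e-05 and 1.85e-06). Over untailed reads the change at +22 was thus above the median change of the counted ends, and those at +23 and +24 were below it. Over reads of all tail lengths, where the median was 2.61, +24 lay above it instead (log2 3.13) and +23 close to it (log2 2.65). +24 was also above that median in nonpolysomes (log2 3.40, median 2.92), and in polysomes it nearly equalled it (log2 2.06, median 2.07).

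In the nonpolysome fraction, +21 was 1.01%, 1.07%, 0.985% and 0.980% in hot3-2, against 0.202%, 0.113%, 0.208% and 0.107% in WT. At +22 it was 0.544%, 0.421%, 0.751% and 0.628% in hot3-2, against 0.0446%, 0.0255%, 0.0584% and 0.0269% in WT. The hot3-2 libraries lay above all WT libraries at both, with log2 fold changes of 2.68 ± 0.26 (SE, adjusted p = 1.94e-06) and 3.92 ± 0.33 (SE, adjusted p = 1.04e-06). With TMM +21 did not pass the test (log2 0.066, adjusted p = 0.697). At +23 the levels were 0.0281%, 0.0253%, 0.0268% and 0.0299% in hot3-2, against 0.00760%, 0.00442%, 0.00874% and 0.00395% in WT. At +24 they were 0.00603%, 0.00579%, 0.00705% and 0.00531% in hot3-2, against 0.00238%, 0.00134%, 0.00360% and 0.00211% in WT. Neither overlapped, and the log2 fold changes were 2.16 ± 0.27 (SE, adjusted p = 2.01e-05) and 1.37 ± 0.28 (SE, adjusted p = 0.000647), whereas with TMM both were lower in hot3-2 (log2 -0.46 and -1.26). All 4 ends were called, with 93.1% of positions called, which split into 27 higher and 0 lower relative to the D site, against 13 higher and 11 lower with TMM. Libraries did not overlap at 27 of the 29 positions.

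In the polysome fraction, +21 was 0.0956%, 0.200%, 0.0934% and 0.180% in hot3-2, against 0.0231%, 0.0526%, 0.02% and 0.0416% in WT. At +22 it was 0.0480%, 0.0697%, 0.0722% and 0.0912% in hot3-2, against 0.00564%, 0.0104%, 0.00610% and 0.0110% in WT. Neither overlapped (log2 fold changes 2.05 ± 0.31 and 3.09 ± 0.28 SE, adjusted p = 3.02e-06 and 1.95e-09), but with TMM +21 did not pass the test (log2 0.13, adjusted p = 0.631). At +23 the levels were 0.00328%, 0.00476%, 0.00368% and 0.00613% in hot3-2, against 0.00121%, 0.00217%, 0.00139% and 0.00233% in WT. Set against the D site this was higher in hot3-2 (log2 fold change 1.34 ± 0.29 SE, adjusted p = 0.000225) and lower with TMM (log2 -0.62). At +24 the levels were 0.00119%, 0.00116%, 0.00144% and 0.00146% in hot3-2, against 0.000721%, 0.000623%, 0.00114% and 0.00140% in WT, and these overlapped (log2 fold change 0.47 ± 0.30 SE, adjusted p = 0.177, log2 -1.50 with TMM, and log2 2.06 over reads of all tail lengths). Without WT replicate 4 the +24 end passed the test (log2 0.70, adjusted p = 0.0385). Of the 4 ends 3 were called, with 75.9% of positions called, 22 higher and 0 lower relative to the D site and 10 higher and 11 lower with TMM. Libraries did not overlap at 22 of the 29 positions.

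**Figure D2:**
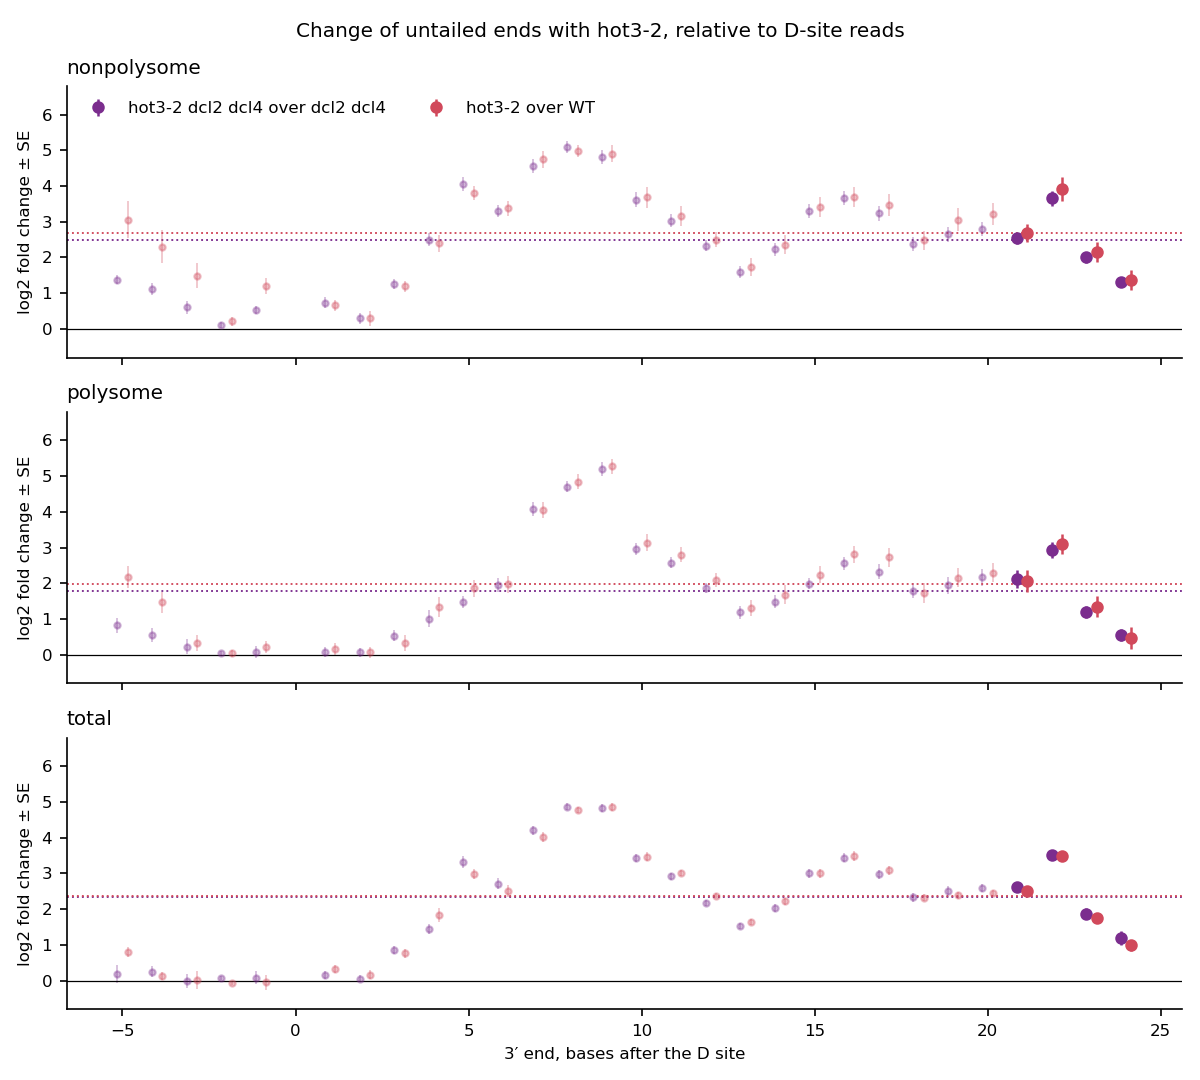
Log2 fold change with SE of every counted end other than the D site, relative to D-site reads, by distance from the D site, in the nonpolysome, polysome and total fractions (4 libraries a group). Large points are +21 to +24, faint points the other positions, dotted lines the medians over 29 positions, and zero is no change relative to the D site. +22 lies above the dotted lines and +24 below them, and with TMM scaling, which sets the libraries close to those lines, +23 and +24 were lower with hot3-2. Over reads of all tail lengths, which are not plotted, +24 lay above the median in total and nonpolysome.

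The same contrast was made in the dcl2 dcl4 background, where the reference lacks DCL2 and DCL4 too. In total lysate +21 was 0.674%, 0.812%, 0.688% and 0.755% in hot3-2 dcl2 dcl4, against 0.114%, 0.142%, 0.111% and 0.114% in dcl2 dcl4. At +22 it was 0.220%, 0.225%, 0.299% and 0.311% in hot3-2 dcl2 dcl4, against 0.0202%, 0.0243%, 0.0230% and 0.0241% in dcl2 dcl4. Fold changes of 6.08 (log2 fold change 2.61 ± 0.11 SE, adjusted p = 3.76e-13) and 11.5 (log2 fold change 3.52 ± 0.14 SE, adjusted p = 2.98e-13) separated them without overlap. At +23 and +24 the means were 0.0147% ± 0.00219 and 0.00245% ± 0.000325 in hot3-2 dcl2 dcl4, against 0.00400% ± 0.000455 and 0.00106% ± 0.000234 in dcl2 dcl4 (SD, n = 4 each). These did not overlap either (log2 1.87 ± 0.15 and 1.2 ± 0.20 SE, adjusted p = 2.83e-09 and 2.68e-05), and with TMM they were lower in hot3-2 dcl2 dcl4 (log2 -0.33 and -1.0). All 4 ends were called, with 75.9% of positions called, 22 higher and 0 lower relative to the D site and 14 higher and 13 lower with TMM. Libraries did not overlap at 22 of the 29 positions.

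In the nonpolysome fraction +21 reached 1.87%, 1.37%, 1.82% and 1.18% in hot3-2 dcl2 dcl4, against 0.298%, 0.264%, 0.283% and 0.231% in dcl2 dcl4. At +22 the levels were 0.696%, 0.464%, 0.935% and 0.602% in hot3-2 dcl2 dcl4, against 0.0519%, 0.0493%, 0.0616% and 0.0518% in dcl2 dcl4. All 4 ends were called there, with 93.1% of positions called. Their log2 fold changes were 2.54 ± 0.16, 3.65 ± 0.21, 2.01 ± 0.15 and 1.30 ± 0.11 (SE) from +21 to +24. With TMM the last pair was lower and +21 was not called (log2 0.087, -0.43 and -1.12 at +21, +23 and +24). Positions called were 12 higher and 12 lower with TMM, against 27 higher and 0 lower relative to the D site. In the polysome fraction the levels at +21 were 0.129%, 0.226%, 0.124% and 0.219% in hot3-2 dcl2 dcl4, against 0.0338%, 0.0542%, 0.0310% and 0.0412% in dcl2 dcl4. At +24 they were 0.00135%, 0.00139%, 0.00125% and 0.00136% in hot3-2 dcl2 dcl4, against 0.000853%, 0.000755%, 0.000775% and 0.00123% in dcl2 dcl4, with no overlap. All 4 ends were called, with 82.8% of positions called, and the log2 fold changes were 2.12 ± 0.24, 2.93 ± 0.23, 1.19 ± 0.17 and 0.56 ± 0.17 (SE), the last pair again lower with TMM (log2 -0.39 and -1.01, positions called 14 higher and 12 lower, against 24 higher and 0 lower relative to the D site). Polysome libraries did not overlap at 23 of the 29 positions. With replicates 2 and 4 only, +24 did not pass in polysomes (log2 0.46, adjusted p = 0.157).

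The comparison of hot3-2 dcl2 dcl4 with hot3-2 asks what loss of both Dicer-like enzymes adds. In total lysate the mean at +21 was 0.732% ± 0.0638 in hot3-2 dcl2 dcl4 and 0.638% ± 0.0562 in hot3-2, and at +22 it was 0.264% ± 0.0480 in hot3-2 dcl2 dcl4 and 0.250% ± 0.0424 in hot3-2 (SD, n = 4 each). At both ends the libraries overlapped, and 0 of the 4 ends were called, with 0% of positions called. 1 of the 4 had an unadjusted edgeR p under 0.05. Here same-numbered libraries deviated together, and with the replicate number as a block +21 was called higher in hot3-2 dcl2 dcl4 (log2 0.20 ± 0.022 SE, adjusted p = 0.000848, 58.6% of positions called). In the polysome fraction hot3-2 dcl2 dcl4 had 0.174% ± 0.0555 at +21 and 0.0691% ± 0.0189 at +22, and hot3-2 had 0.142% ± 0.0558 and 0.0703% ± 0.0177. 0 of 4 ends were called, with 6.9% of positions called, and 0 had an unadjusted p under 0.05, but +21 was called with the block (log2 0.32 ± 0.052 SE, adjusted p = 0.0257, 6.9% of positions called).

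In the nonpolysome fraction the libraries of hot3-2 dcl2 dcl4 lay above those of hot3-2 at +21, where they held 1.87%, 1.37%, 1.82% and 1.18% in hot3-2 dcl2 dcl4, against 1.01%, 1.07%, 0.985% and 0.980% in hot3-2. They also did not overlap at +23, with 0.0445%, 0.0310%, 0.0422% and 0.0316% in hot3-2 dcl2 dcl4, against 0.0281%, 0.0253%, 0.0268% and 0.0299% in hot3-2. Neither passed the test (log2 0.62 ± 0.17 and 0.44 ± 0.15 SE, adjusted p = 0.0603 and 0.0909), nor did +22 (0.20 ± 0.25) or +24 (0.16 ± 0.12). So 0 of 4 were called, with 0% of positions called, while 2 had an unadjusted edgeR p under 0.05. Libraries did not overlap at 4 of the 29 positions. DESeq2 called 2 of the 4, with 17.2% of positions called, and TMM called 1, with 20.7% called. In hot3-2 dcl2 dcl4 replicates 1 and 3 were the higher pair at both ends. With replicates 1 and 3 only, +21 and +23 were called (log2 0.89 and 0.66, adjusted p = 0.00026 and 0.000931, 37.9% of positions called), and with replicates 2 and 4 only +21 had a log2 difference of 0.31 (adjusted p = 0.422). The call at +21 was also made without hot3-2 replicate 2 (log2 0.65, adjusted p = 0.034) or without hot3-2 dcl2 dcl4 replicate 4 (log2 0.74, adjusted p = 0.0362).

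dcl2 dcl4 was compared with WT to see whether the loss of the enzymes alone alters the ends. In total lysate the means were 0.120% ± 0.0145 at +21, 0.0229% ± 0.00187 at +22, 0.00400% ± 0.000455 at +23 and 0.00106% ± 0.000234 at +24 in dcl2 dcl4. In WT they were 0.112% ± 0.0119, 0.0225% ± 0.00151, 0.00426% ± 9.58e-05 and 0.00113% ± 0.000238 (SD, n = 4 each). The libraries overlapped at every one of these ends, 0 of 4 were called, with 0% of positions called, and 0 of 4 had an unadjusted edgeR p under 0.05. In the polysome fraction, dcl2 dcl4 held 0.00836%, 0.0118%, 0.00746% and 0.00865% at +22, against 0.00564%, 0.0104%, 0.00610% and 0.0110% in WT, and 0 of 4 ends were called there, with 0% of positions called and 0 unadjusted p under 0.05.

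In the nonpolysome fraction dcl2 dcl4 had 0.298%, 0.264%, 0.283% and 0.231% at +21, against 0.202%, 0.113%, 0.208% and 0.107% in WT. The groups did not overlap, and WT replicates 1 and 3 lay nearer to the dcl2 dcl4 libraries than WT replicates 2 and 4. The difference did not pass the test (log2 fold change 0.77 ± 0.24 SE, adjusted p = 0.208), nor did those at +22, +23 and +24 (0.47 ± 0.26, 0.59 ± 0.25 and 0.24 ± 0.25 SE, adjusted p = 0.358, 0.208 and 0.585). Thus 0 of 4 were called, with 0% of positions called, and 2 had an unadjusted edgeR p under 0.05. Libraries did not overlap at 3 of the 29 positions. DESeq2 called 1 of the 4, with 3.45% of positions called, and TMM called 1, with 17.2% called. Same-numbered libraries deviated together, and with the block +21 and +23 were called higher in dcl2 dcl4 (log2 0.83 ± 0.15 and 0.65 ± 0.17 SE, adjusted p = 0.0145 and 0.0325, 31% of positions called). Within replicates 2 and 4 the log2 difference at +21 was 1.17 (adjusted p = 3.06e-05), and within replicates 1 and 3 it was 0.50 (adjusted p = 0.00854).

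Whether the effect of hot3-2 differed with and without dcl2 dcl4 was tested directly. In the total, nonpolysome and polysome fractions 0 of 4 ends were called in this test, with 0%, 0% and 0% of positions called, and 0 of 4 had an unadjusted edgeR p under 0.05 in each. A missed threshold does not show that the effects were equal.

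Fractions were compared within each genotype to ask whether precursors with these ends enter polysomes. Same-numbered fraction libraries of a genotype may share a lysate, which the sources used here do not state. The tests were unpaired. With the replicate number as a block, each fraction comparison called the same number of these ends. Relative to the D site, nonpolysome levels were higher than polysome levels at all 4 ends in every genotype. With TMM the difference at +24 passed the test in no genotype, and it turned in hot3-2 dcl2 dcl4 and WT. In hot3-2 dcl2 dcl4, for example, nonpolysome libraries had 0.0445%, 0.0310%, 0.0422% and 0.0316% at +23, against 0.00381%, 0.00493%, 0.00389% and 0.00529% in polysome libraries. From +21 to +24 the log2 fold changes of nonpolysome over polysome in hot3-2 dcl2 dcl4 were 3.16 ± 0.22, 3.29 ± 0.25, 3.05 ± 0.18 and 2.33 ± 0.11 (SE). In hot3-2 they were 2.83 ± 0.27, 3.06 ± 0.25, 2.62 ± 0.20 and 2.20 ± 0.13. The 4 ends were called in hot3-2 dcl2 dcl4, with 96.6% of positions called, and in hot3-2, with 96.6% called. In dcl2 dcl4 the values were 2.74 ± 0.18, 2.56 ± 0.19, 2.23 ± 0.16 and 1.58 ± 0.16, all 4 called with 89.7% of positions called. In WT they were 2.20 ± 0.34, 2.23 ± 0.34, 1.80 ± 0.31 and 1.29 ± 0.32, all 4 called with 86.2% called, although WT libraries overlapped at +24. The values differed between replicates. In WT +21 gave 3.25 from replicates 1 and 3 alone. Replicates 2 and 4 alone gave 1.22, and +24 did not pass the test with them (log2 0.79, adjusted p = 0.23). The other genotypes split the same way at +21. Replicates 1 and 3 alone gave 3.87 in hot3-2 dcl2 dcl4, 3.40 in hot3-2 and 3.16 in dcl2 dcl4, against 2.52, 2.43 and 2.37 from replicates 2 and 4. TMM called 2 of the 4 ends in WT, with 72.4% of positions called. At +24 WT nonpolysome libraries held 0.00238%, 0.00134%, 0.00360% and 0.00211%, against 0.000721%, 0.000623%, 0.00114% and 0.00140% in polysome libraries. With TMM the values at +24 were -0.12 in hot3-2 dcl2 dcl4, 0.0034 in hot3-2, 0.0085 in dcl2 dcl4 and -0.15 in WT. None of them passed the test. The positions called were 28 higher and 0 lower in hot3-2 dcl2 dcl4 and in hot3-2, 26 and 0 in dcl2 dcl4 and 25 and 0 in WT, against 16 higher and 11 lower, 15 higher and 8 lower, 14 higher and 8 lower and 14 higher and 7 lower with TMM.

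Relative to the D site, nonpolysome levels also exceeded those of the total lysate, but with TMM this turned at +21 in hot3-2 dcl2 dcl4, hot3-2 and WT and at +23 in hot3-2 and WT. In hot3-2, +22 had 0.544%, 0.421%, 0.751% and 0.628% in nonpolysome libraries, against 0.217%, 0.211%, 0.293% and 0.281% in total libraries. The log2 fold changes of nonpolysome over total at +21, +22, +23 and +24 were 1.09 ± 0.15, 1.35 ± 0.20, 1.34 ± 0.16 and 1.45 ± 0.12 (SE) in hot3-2 dcl2 dcl4, all 4 called with 100% of positions called. In hot3-2 they were 0.66 ± 0.098, 1.23 ± 0.20, 0.94 ± 0.12 and 1.42 ± 0.13, all 4 called with 96.6% called. In dcl2 dcl4 they were 1.16 ± 0.12, 1.22 ± 0.11, 1.2 ± 0.13 and 1.35 ± 0.18, all 4 called with 93.1% called. With TMM the change at +21 was -0.093 in hot3-2 dcl2 dcl4 and -0.46 in hot3-2, and that at +23 was -0.19 in hot3-2. TMM called 1 of 4 ends in hot3-2 dcl2 dcl4, +24, which was higher in nonpolysomes (log2 0.31, adjusted p = 0.0309). In hot3-2 TMM called 1, +21, which was lower in nonpolysomes (adjusted p = 0.0359). In dcl2 dcl4 TMM called 3, +22 to +24, all higher. The negative values at +21 in hot3-2 dcl2 dcl4 and at +23 in hot3-2 did not pass (adjusted p = 0.489 and 0.224). Its calls over all positions were 7 higher and 6 lower in hot3-2 dcl2 dcl4, 6 higher and 8 lower in hot3-2 and 6 higher and 5 lower in dcl2 dcl4, against 29, 28 and 27 higher and 0 lower relative to the D site.

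WT was the exception. Its nonpolysome libraries held 0.202%, 0.113%, 0.208% and 0.107% at +21, against 0.104%, 0.129%, 0.104% and 0.113% in total libraries, so that replicates 1 and 3 of the nonpolysome fraction lay above every total library and replicates 2 and 4 among them. The log2 fold changes were 0.49 ± 0.23, 0.79 ± 0.26, 0.53 ± 0.24 and 1.02 ± 0.28 (SE), and 2 of 4 ends, +22 and +24, were called, with 75.9% of positions called. Leaving out WT nonpolysome replicate 2 or replicate 4 gave 4 called ends, and leaving out WT total replicate 1 gave 1. With replicates 2 and 4 only, 0 of 4 were called and +21 and +23 had log2 values of -0.14 and -0.029, while with replicates 1 and 3 only 4 of 4 were called. With TMM 0 were called, with 2 higher and 0 lower over all positions, and +21 and +23 were negative (log2 -0.25 and -0.20). The share of all positions called is not given for the subsets or with a library left out.

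Relative to the D site, polysome levels were below those of the total lysate at +21 to +23 in every genotype and at +24 in both with hot3-2. Over untailed reads the gap was smallest at +24, and with TMM +24 turned the other way. In hot3-2 the polysome libraries held 0.0956%, 0.200%, 0.0934% and 0.180% at +21, against 0.607%, 0.719%, 0.594% and 0.631% in total libraries. The log2 fold changes of polysome over total from +21 to +24 were -2.07 ± 0.19, -1.93 ± 0.20, -1.72 ± 0.16 and -0.87 ± 0.13 (SE) in hot3-2 dcl2 dcl4. In hot3-2 they were -2.16 ± 0.25, -1.83 ± 0.20, -1.69 ± 0.20 and -0.79 ± 0.16. All 4 ends were called lower in polysomes in hot3-2 dcl2 dcl4, with 79.3% of positions called, and in hot3-2, with 79.3% called. In dcl2 dcl4 the values were -1.59 ± 0.17, -1.34 ± 0.15, -1.03 ± 0.15 and -0.23 ± 0.23, and in WT -1.71 ± 0.22, -1.44 ± 0.23, -1.28 ± 0.23 and -0.28 ± 0.23. There 3 of 4 ends were called in each, with 65.5% of positions called in dcl2 dcl4 and 65.5% in WT, and +24 did not pass (adjusted p = 0.461 and 0.324). With TMM the log2 value at +24 was positive in all 4 genotypes. It passed the test in hot3-2 (log2 0.41, adjusted p = 0.00921) and dcl2 dcl4 (log2 0.52, adjusted p = 0.0399). It did not pass in hot3-2 dcl2 dcl4 (log2 0.29, adjusted p = 0.0617) or WT (log2 0.30, adjusted p = 0.266). The positions called were 2 higher and 21 lower in hot3-2 dcl2 dcl4, 2 higher and 21 lower in hot3-2, 3 higher and 16 lower in dcl2 dcl4 and 2 higher and 17 lower in WT, against 12 higher and 14 lower, 14 higher and 14 lower, 13 higher and 14 lower and 10 higher and 16 lower with TMM. Over reads of all tail lengths +24 was called lower in polysomes in dcl2 dcl4 and WT too (log2 -0.67 and -0.95). With hot3-2 the gap then hardly differed along the ends, with -2.08 at +21 and -2.22 at +24 in hot3-2 dcl2 dcl4 and -2.17 and -2.01 in hot3-2.

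**Figure D3:**
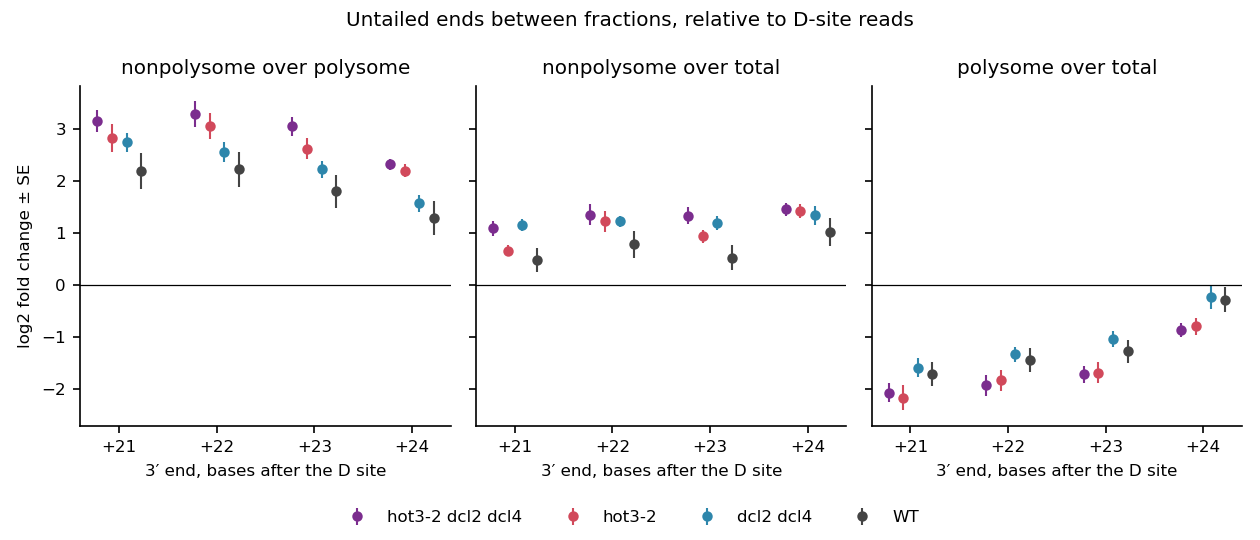
Log2 fold changes with SE (4 libraries a group) between fractions at +21 to +24, relative to D-site reads, for each genotype. Nonpolysome lies above polysome and total, and polysome lies below total by least at +24 over these untailed reads, though not in hot3-2 dcl2 dcl4 over reads of all tail lengths. With TMM scaling polysome over total was positive at +24 in all 4 genotypes and passed the test in hot3-2 and dcl2 dcl4. Nonpolysome over total turned negative at +21 in hot3-2 dcl2 dcl4, hot3-2 and WT and at +23 in hot3-2 and WT. Of these only +21 in hot3-2 passed. Nonpolysome over polysome turned negative at +24 in hot3-2 dcl2 dcl4 and WT, and at +24 it passed in no genotype.

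The effect of hot3-2 was set against itself between fractions by a test of the difference. Over WT, no difference at the 4 ends passed the test between nonpolysome and total (0 of 4 called, 24.1% of positions called), between polysome and total (0 of 4, 13.8% called) or between nonpolysome and polysome (0 of 4, 17.2% called). An unadjusted edgeR p under 0.05 was found at 0, 0 and 1 of the 4 ends. In the last of these the log2 differences were 0.63 ± 0.45 SE, adjusted p = 0.217 at +21, 0.83 ± 0.42 SE, adjusted p = 0.111 at +22, 0.82 ± 0.40 SE, adjusted p = 0.111 at +23 and 0.91 ± 0.40 SE, adjusted p = 0.0815 at +24. With TMM 2 of 4 ends, +22 and +23, were called between polysome and total, both as a smaller effect in polysomes, with 55.2% of positions called (2 higher and 14 lower).

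In the dcl2 dcl4 background the effect was larger in nonpolysomes than in polysomes at +22 (log2 difference 0.72 ± 0.30 SE, adjusted p = 0.0478), +23 (0.82 ± 0.23 SE, adjusted p = 0.007) and +24 (0.75 ± 0.20 SE, adjusted p = 0.00423), relative to the D site, but with TMM these differences were -0.32, -0.23 and -0.35 and did not pass the test. At +21 the difference was 0.41 ± 0.29 SE, adjusted p = 0.184, and -0.61 with TMM. So 3 of 4 ends were called, with 55.2% of positions called, 16 higher and 0 lower, against 1 higher and 2 lower with TMM. The call at +22 was lost without replicate 1, 2 or 3 (adjusted p = 0.219, 0.052 and 0.0904) and with the replicate block (adjusted p = 0.0588), and that at +24 without replicate 4 (adjusted p = 0.0769). Between polysome and total, 1 of 4 ends was called, with 27.6% of positions called (0 higher and 8 lower, against 1 higher and 3 lower with TMM). This was +23 (log2 difference -0.68 ± 0.22 SE, adjusted p = 0.0395), and its call was lost with TMM (log2 -0.48, adjusted p = 0.161) and without replicate 1, 2 or 3 (adjusted p = 0.16, 0.11 and 0.0929), while with the replicate block all 4 ends were called, with 65.5% of positions called. Between nonpolysome and total 0 of 4 were called, with 17.2% of positions called and 0 unadjusted p under 0.05.

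The balance between the A2 ends was measured by setting untailed +22 reads against +21 reads within each library, which needs no D-site count. In total lysate +22 reads were 35.7%, 29.4%, 49.4% and 44.4% of +21 reads in hot3-2, against 19.5%, 17.7%, 23.1% and 20.3% in WT. They were 32.6%, 27.7%, 43.4% and 41.2% in hot3-2 dcl2 dcl4, against 17.7%, 17.1%, 20.8% and 21.2% in dcl2 dcl4. In this fraction every library with hot3-2 lay above every library without it. In nonpolysomes the means were 58.4% ± 15.6 in hot3-2 and 24.5% ± 2.74 in WT, and in polysomes 53.3% ± 17.6 in hot3-2 and 25.3% ± 4.42 in WT (SD, n = 4 each). The log2 difference of hot3-2 and WT was 0.96 in total lysate, 1.22 in nonpolysomes and 1.03 in polysomes, and that of hot3-2 dcl2 dcl4 and dcl2 dcl4 was 0.90, 1.09 and 0.81. In none of these 6 comparisons did the groups overlap. The two-sided exact permutation test gave p = 0.0286 in each, which is as small as groups of 4 can give, and 0.114 after adjustment over 24 comparisons. None passed 0.05 after adjustment, which does not weigh the size of the differences because each unadjusted p was at its floor. With reads of all tail lengths these 6 differences ranged from 1.26 to 1.64. Between hot3-2 dcl2 dcl4 and hot3-2, between dcl2 dcl4 and WT and between fractions of a genotype, the libraries overlapped in each of the other 18 comparisons.

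The downstream ends were weighed in the same way, as the untailed reads at +23 and +24 together against those at +21 and +22. In total lysate this ratio was 1.83%, 1.69%, 1.81% and 2.14% in hot3-2, against 4.16%, 3.70%, 4.05% and 4.10% in WT. It was 1.73%, 1.76%, 1.57% and 1.84% in hot3-2 dcl2 dcl4, against 3.35%, 3.18%, 3.58% and 4.12% in dcl2 dcl4. Both genotypes with hot3-2 had a lower share of downstream ends in all 3 fractions without overlap, with log2 differences of -1.10, -1.04 and -1.28 over WT and of -1.04, -0.90 and -1.28 over dcl2 dcl4 in total, nonpolysome and polysome. Over reads of all tail lengths these differences were -0.71, -0.70 and -1.09 over WT and -0.52, -0.58 and -1.04 over dcl2 dcl4. In dcl2 dcl4 the nonpolysome ratio was 3.72% ± 0.149, against 4.34% ± 0.282 in WT (SD, n = 4 each, no overlap). Polysomes had a higher share of downstream ends than total lysate in every genotype, for example 6.98% ± 2.14 in WT polysomes and 4.00% ± 0.205 in WT total lysate. This difference was 0.51 on the log2 scale in hot3-2 dcl2 dcl4 and 0.57 in hot3-2, and 0.11 and 0.15 over reads of all tail lengths. dcl2 dcl4 nonpolysome libraries had a lower share than dcl2 dcl4 polysome libraries (3.72% ± 0.149 and 5.99% ± 0.920), again without overlap. The exact two-sided permutation p of these 12 comparisons was 0.0286 each, and 0.0571 after adjustment over 24 comparisons, so that none passed 0.05. Each unadjusted p was the smallest that groups of 4 can give, so the missed threshold does not weigh the size of these differences.

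**Figure D4:**
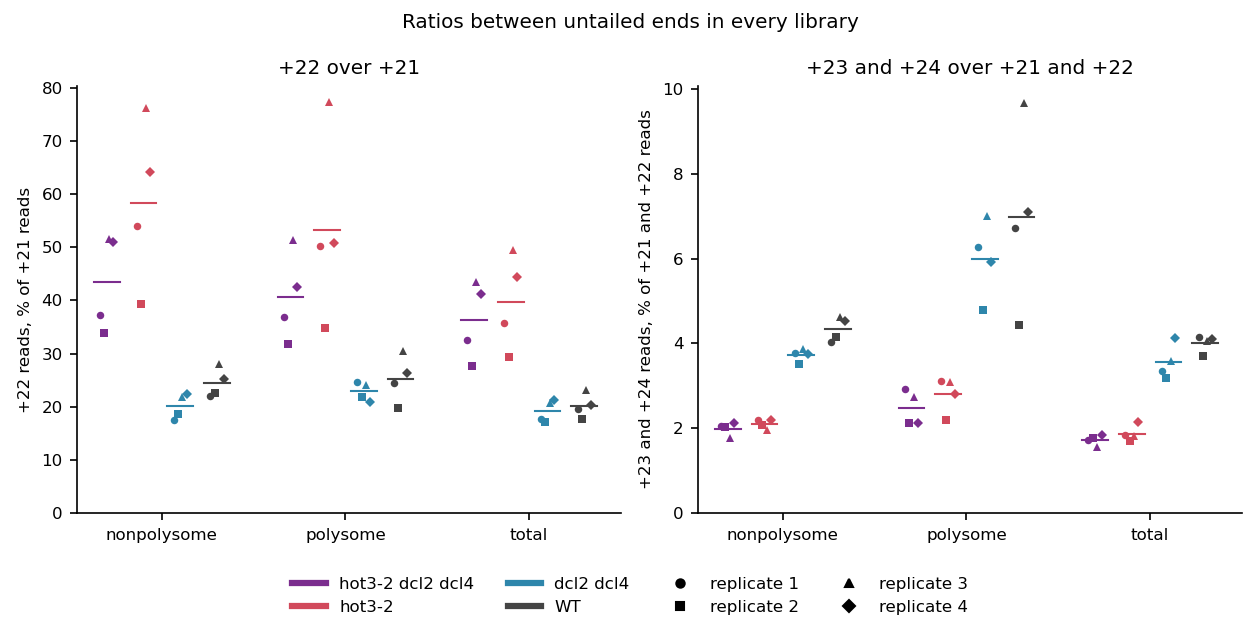
Untailed +22 reads as a percentage of +21 reads (left) and +23 and +24 reads as a percentage of +21 and +22 reads (right) in every library, with group means as lines. Within each fraction libraries with hot3-2 lie higher on the left, where the WT and dcl2 dcl4 libraries sit between 17.1% and 30.5%, and lower on the right, where the libraries with hot3-2 sit between 1.57% and 3.12%.

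A readout that did not choose the ends is the share of reads that carried a tail of 1 to 10 nucleotides. At +21 the tailed share was 0.797% to 8.97% over the 48 libraries (median 1.81%), at +22 it was 61.3% to 87.6% (median 77.9%), at +23 11.4% to 68.8% (median 34.4%) and at +24 13.6% to 92.0% (median 59.8%). At the ends just upstream, +19 and +20, it was 5.88% to 37.1% and 6.51% to 37.9%. Most reads at +22 are therefore outside the untailed levels given above, and nearly all reads at +21 are inside them. As said of the sequence, a tail that begins with A on a +21 end would be counted at +22, so these shares are not independent of each other.

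The tailed share was given no test, and its groups are described by their libraries. At +24 in total lysate, tails were found on 86.9%, 82.5%, 92.0% and 90.5% of reads in hot3-2, against 49.3%, 36.6%, 67.7% and 56.2% in WT. At +23 they were found on 50.3%, 44.8%, 68.8% and 56.5% in hot3-2, against 18.0%, 14.4%, 27.8% and 18.7% in WT. At both ends the libraries with hot3-2 lay above those without it in all 3 fractions and in both backgrounds. At +22 the groups overlapped in all 6 of these comparisons, for example with 82.8%, 79.5%, 87.6% and 86.3% in hot3-2 total, against 72.2%, 68.0%, 79.7% and 79.6% in WT total. The mean at +22 was still higher with hot3-2 in all 6. The difference was smallest for hot3-2 over WT (4.65 points) and largest for hot3-2 dcl2 dcl4 over dcl2 dcl4 (9.57 points), both in nonpolysomes. At +21 the groups were apart only in nonpolysomes, where hot3-2 had 5.76%, 2.59%, 8.97% and 6.75%, against 1.52%, 1.2%, 1.70% and 1.85% in WT. A higher tailed share with hot3-2 was not particular to the members. At +19 in total lysate, hot3-2 dcl2 dcl4 had 16.03% to 26.17%, against 8.116% to 15.84% in dcl2 dcl4. In nonpolysomes these genotypes had 18.15% to 32.41% and 10.98% to 18.04% at +19, again without overlap. In polysomes they overlapped there (15.42% to 21.12% and 5.88% to 19.7%). At +20 in total lysate, hot3-2 had 17.1% to 37.9%, against 7.5% to 16.3% in WT. The groups with and without hot3-2 also lay apart at +20 in the other comparisons, except hot3-2 and WT nonpolysomes (18.8% to 35.8% and 12.7% to 20.9%). How many of all counted positions lay apart in tailed share is not given. Replicates 3 and 4 had a higher tailed share than replicates 1 and 2 at +22 and at +23 in 11 of 12 groups each. The ratio of +22 to +21 split the same way in 11 of 12 groups, and the part of tailing in it was not tested. The change with hot3-2 at +24 in total lysate was larger over reads of all tail lengths (log2 3.13) than over untailed reads (log2 0.98), and at +23 it was 2.65 over all tail lengths and 1.75 over untailed reads.

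**Figure D5:**
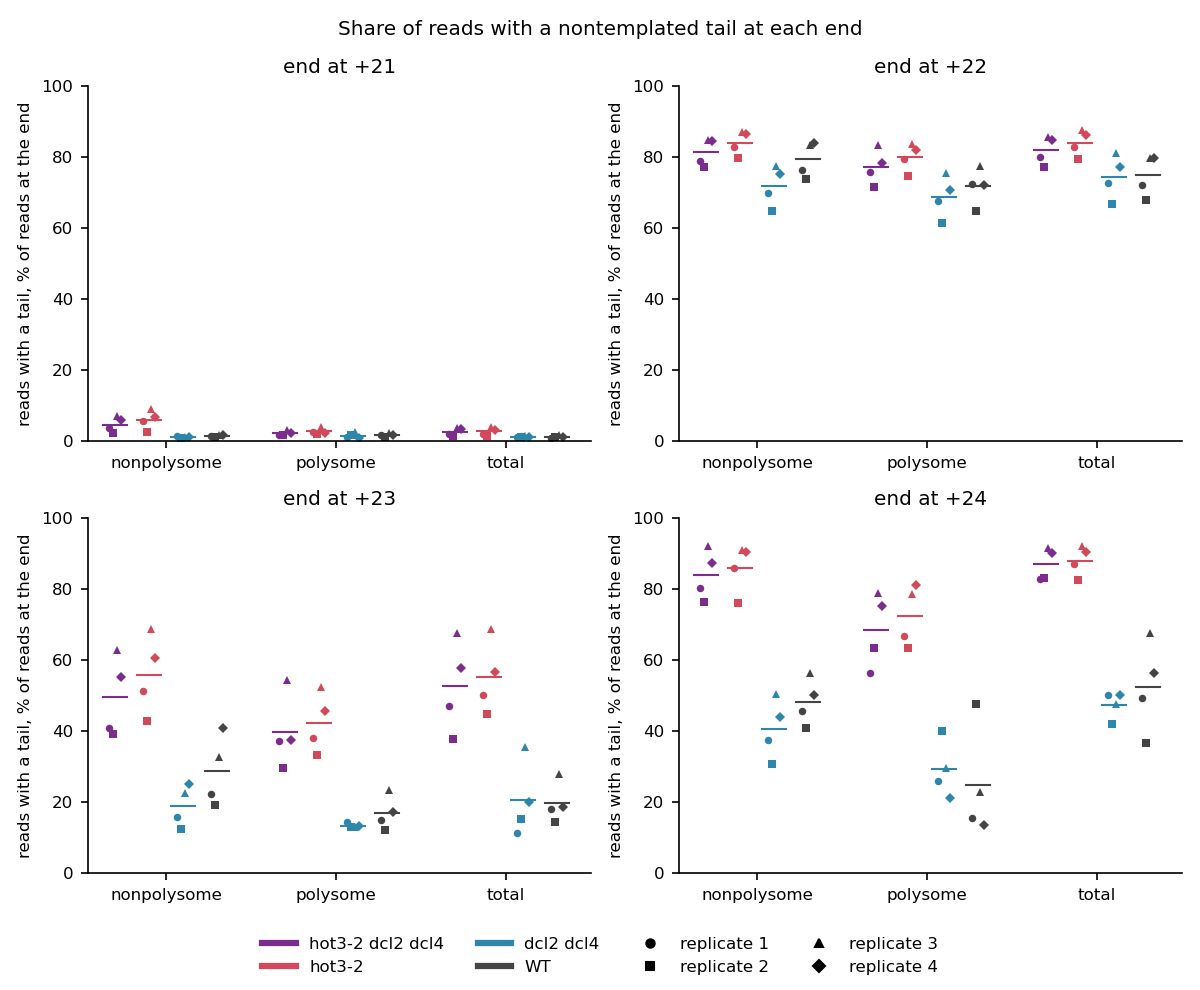
Share of reads at each end that carried a nontemplated tail, in every library, with group means as lines. The share is at most 8.97% at +21 and at least 61.3% at +22 in every library, and within each fraction hot3-2 libraries lie above WT and hot3-2 dcl2 dcl4 libraries above dcl2 dcl4 at +23 and +24.

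The flanking ends +19 and +20 are next to A2 and were not among the members. In total lysate untailed +20 reads were 0.141% ± 0.00955 of D-site reads in hot3-2 and 0.0258% ± 0.000927 in WT, and +19 reads 0.0364% ± 0.00120 in hot3-2 and 0.00697% ± 0.000792 in WT (SD, n = 4 each). Likeness was measured as the Spearman correlation of log2 group means over the 12 groups, which share D-site counts and fractions, and it is given as a description. The non-member ends most like +21 were +18 and +20 (0.993 each, tied with +19). For +22 they were +10 (1.00) and +8 (0.993, tied with +9), both in A1, the ends at +8 to +13. For +23 they were +18 (0.993) and +12 (0.986), and for +24 again +18 (0.951) and +12 (0.944). Among the members, +21 and +23 were the most alike (0.986) and +22 and +24 the least (0.846), although +22 and +21 are adjacent (0.951).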

How the data were processed

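18S-ENDseq was run by the authors on RNA from 18-day-old seedlings. Per their methods, RNA was closed into circles with T4 RNA ligase, cDNA was primed inside 18S rRNA, and the PCR products were read from both ends. Only reads with the mature 5′ end of 18S rRNA were kept for the counts. The labels name cutadapt 4.2 and STAR 2.7.10b, with mapping to a 45S rDNA reference in which multi-mapping reads were reported once. The deposited files hold read counts per 3′ end position (1886 to 1915) and tail length (0 to 10), 330 lines per library, without normalization. No molecular identifiers were used.

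The untailed counts at each position were set against the untailed D-site count of the same library. The 29 positions other than the D site were tested on the deposited counts with edgeR 4.0.16 (quasi-likelihood test, R 4.3.3, D-site count as library size, a minimum of 10 reads in 4 libraries), each comparison on its own groups, with Benjamini-Hochberg adjustment over the 29 positions and a threshold of 0.05. Differences between effects were interaction terms of the 4 groups concerned. Ratios between ends were tested by exact permutation of the libraries, adjusted over 24 comparisons per ratio (scipy 1.17.1). Alternatives were TMM scaling, all counted reads as library size, reads of all tail lengths, DESeq2 1.42.0, no low count filter, the replicate number as a block, replicate subsets and leaving out each library. On counts simulated for hot3-2 total against WT total at 29 positions, all of 300 changes of 1 on the log2 scale and of 300 changes of 2 were recovered (100%). The simulated positions varied independently at a fixed dispersion, and most were left unchanged. This recovery is therefore no measure of power for the real libraries or for the other comparisons. Members of a pair of same-numbered libraries were taken as paired where all 4 correlations of their deviations from the group means were above 0.1, which was a hint from the data and not from the labels. All 4 ends, from +21 to +24, are named. They, the ends set beside them and the tests were chosen with earlier results of these data known.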

Additional observations from a re-analysis of the deposited data

Results flagged for a closer look

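Of 72 sets of 4 libraries checked for a library far from the others, 2 held one, where chance gives about 1 in 20. The level of +21 in dcl2 dcl4 total replicate 2 was the highest of its group at 0.142% of D-site reads. The level of +24 in hot3-2 dcl2 dcl4 total replicate 2 was the lowest of its group at 0.00197%.

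In the dcl2 dcl4 background, the effect of hot3-2 differed between fractions by a test of the difference. It was smaller in polysomes than in total lysate at +23 (log2 difference -0.68). It was larger in nonpolysomes than in polysomes at +22 (0.72), +23 (0.82) and +24 (0.75) relative to the D site, while with TMM these 3 differences were -0.32, -0.23 and -0.35.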

How the results depend on the processing

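Of 71 called values at single ends, TMM scaling left 34 with their direction and call, turned 21 and took the call from 16. Other settings kept 473 values with 8 calls lost, and leaving out a library kept 544 with 8 lost. The log2 values that turned with TMM are listed next, and those not called relative to the D site are named. For hot3-2 over WT they were -0.61, -0.46 and -0.62 at +23 and -1.38, -1.26 and -1.50 at +24 in total, nonpolysome and polysome. Here +24 in polysome had not been called. For hot3-2 dcl2 dcl4 over dcl2 dcl4 they were -0.33, -0.43 and -0.39 at +23 and -1.0, -1.12 and -1.01 at +24. Nonpolysome over total turned at +21 in hot3-2 dcl2 dcl4, hot3-2 and WT (-0.093, -0.46 and -0.25) and at +23 in hot3-2 and WT (-0.19 and -0.20). Neither WT value had been called. Nonpolysome over polysome turned at +24 in hot3-2 dcl2 dcl4 and WT (-0.12 and -0.15), and lost its call there in hot3-2 and dcl2 dcl4 (0.0034 and 0.0085). Polysome over total turned at +24 in hot3-2 dcl2 dcl4, hot3-2, dcl2 dcl4 and WT (0.29, 0.41, 0.52 and 0.30). In dcl2 dcl4 and WT it had not been called. Of the turned fraction values, only nonpolysome over total at +21 in hot3-2 and polysome over total at +24 in hot3-2 and dcl2 dcl4 passed the test with TMM. The difference of effects in the dcl2 dcl4 background between nonpolysome and polysome was -0.61, -0.32, -0.23 and -0.35 from +21 to +24, with 0 of 4 called. That at +21 had not been called relative to the D site either. TMM called 1 of 4 ends for dcl2 dcl4 over WT and for hot3-2 dcl2 dcl4 over hot3-2 in nonpolysomes. For nonpolysome over polysome in WT it called 2 (positions called 72.4%). For nonpolysome over total it called 0 in WT, 1 in hot3-2 (+21, lower in nonpolysomes) and 1 in hot3-2 dcl2 dcl4 (+24, higher). For the effect of hot3-2 between polysome and total it called 2 over WT and 0 over dcl2 dcl4. TMM sets the libraries against the counted positions, and the D-site scale sets them against mature 18S rRNA. Most counted positions were called relative to the D site in the comparisons of hot3-2 with its reference. Which scale is nearer to absolute amounts was not tested.

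All counted reads as library size gave 0 called ends for the polysome and total difference in the dcl2 dcl4 background, with 0 higher and 3 lower over all positions. Reads of all tail lengths gave 2, with 0 higher and 7 lower over all positions. With all tail lengths, +22 was -0.023 and +24 was -0.0032 for dcl2 dcl4 over WT in nonpolysomes, and +22 was -0.026 for hot3-2 dcl2 dcl4 over hot3-2. The log2 differences of the ratio of +22 to +21 were then 1.59 in total and 1.51 in polysome for hot3-2 over WT, and 1.37, 1.64 and 1.26 for hot3-2 dcl2 dcl4 over dcl2 dcl4 in total, nonpolysome and polysome. The cause was not tested. The ratio of +23 and +24 to +21 and +22 moved toward 0 in all 6 comparisons of hot3-2 (log2 -0.52 to -1.09). DESeq2 called 1 end for dcl2 dcl4 over WT and 2 for hot3-2 dcl2 dcl4 over hot3-2 in nonpolysomes.

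With the replicate number as a block, 2 ends were called for dcl2 dcl4 over WT in nonpolysomes, 1 each for hot3-2 dcl2 dcl4 over hot3-2 in total and polysome, and 4 for the polysome and total difference in the dcl2 dcl4 background. Among comparisons whose libraries share only a number, the block called +24 for hot3-2 over WT in polysomes (log2 0.50, adjusted p = 0.0328). For the nonpolysome and polysome difference in the dcl2 dcl4 background it called 2 ends in place of 3, and in the other comparisons it changed no count of called ends. With replicates 1 and 3 only, 1 end was called for dcl2 dcl4 over WT and 2 for hot3-2 dcl2 dcl4 over hot3-2 in nonpolysomes, 1 for the last pair in polysomes and 4 for nonpolysome over total in WT. With replicates 2 and 4 only, 3 were called for dcl2 dcl4 over WT in nonpolysomes and 0 for nonpolysome over total in WT, where +21 and +23 were -0.14 and -0.029. The +24 end then lost its call for hot3-2 dcl2 dcl4 over dcl2 dcl4 in polysomes (log2 0.46, adjusted p = 0.157) and for nonpolysome over polysome in WT (log2 0.79, adjusted p = 0.23). Leaving out a library gave 0 to 1 called ends for the polysome and total difference in the dcl2 dcl4 background, 0 to 1 for hot3-2 dcl2 dcl4 over hot3-2 in nonpolysomes and 1 to 4 for nonpolysome over total in WT. Where no share of all positions called is printed for a setting or subset, its count is not read as particular to these ends.

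Depth limited +24 most, with 19 to 183 untailed reads a library. Reads at +21 and +22 include any tail that copies the template there, and reads without the mature 5′ end had been left out of the counts.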
